A study of Mus musculus with 9 samples.

Results

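The 10 genes described here are known targets of the glucocorticoid receptor or respond to food shortage, and were taken from the deposited gene counts by symbol: Fkbp5, Tsc22d3, Per1, Sgk1, Ddit4, Klf9, Cebpd, Txnip, Mt1 and Mt2. They are 10 of the 25361 genes listed, and all 10 had enough reads to be tested. The libraries came from tumours that had grown for 21 days under the skin of male wild-type C57BL/6N mice injected with MC38, a mouse colon carcinoma line, and from the cells that CD8a magnetic beads retained after the tumours were digested. The 3 groups, with 3 libraries each, were 5-month animals with free access to food (young), 20-month animals with free access to food (aged ad libitum) and 20-month animals kept long-term on 70% of what ad libitum mice ate (restricted). No young restricted mice were among the groups, so the effect of restriction was measured at 20 months only. All 3 groups carried the same tumour line. The time of day of collection and the interval since the last meal are not given in the sources used here.

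Glucocorticoids, the adrenal steroids whose level in blood follows the day and increases with fasting and stress, bind the glucocorticoid receptor (the product of Nr3c1). The receptor then leaves its HSP90 chaperone complex, enters the nucleus and binds DNA at inverted repeats of a short motif. In immune cells it is known for switching on anti-inflammatory genes. Fkbp5 encodes a co-chaperone that lowers the receptor's own affinity for hormone, a negative feedback loop. Tsc22d3 encodes GILZ, which restrains NF-κB and AP-1. Per1 (a repressor of the circadian clock), Klf9 (a Krüppel-like zinc finger factor) and Cebpd (a C/EBP factor of the acute phase response) carry the signal on as transcriptional regulators. Sgk1 encodes a kinase downstream of PI3K, Ddit4 encodes REDD1, an inhibitor of mTORC1, and Txnip encodes a thioredoxin-binding arrestin that limits glucose uptake. Mt1 and Mt2 encode metallothioneins, small proteins that bind zinc and copper and are induced by metals, through the factor MTF1, as well as by glucocorticoids.

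The regulatory letters of the metallothionein pair and of Sgk1 are shown because the 2 members that passed the test between a pair of groups were Sgk1 and Mt2, and because Mt1 and Mt2 lie side by side and differed in their counts. RefSeq promoter windows (GRCm38.p6, 250 bases before to 50 after an annotated start) matched 9 of the 10 genes, with 17 windows in all. In the Mt1 and Mt2 windows the capitals mark the metal response element, searched as TGCACNC or TGCGCNC on both strands. In the Sgk1 window they mark the glucocorticoid receptor monomer motif, TGTTCT on either strand. In GRCm38 (GENCODE M21, matched by gene identifier) the gene bodies are at chr8:94179082-94180327 for Mt1, chr8:94172664-94173568 for Mt2 and chr10:21882184-21999903 for Sgk1, all protein-coding and on the plus strand. The windows shown are also on the plus strand, at chr8:94178839-94179138 for Mt1, chr8:94172368-94172667 for Mt2 and chr10:21993640-21993939 for the 1 of the 6 Sgk1 windows that is shown.
Mt1: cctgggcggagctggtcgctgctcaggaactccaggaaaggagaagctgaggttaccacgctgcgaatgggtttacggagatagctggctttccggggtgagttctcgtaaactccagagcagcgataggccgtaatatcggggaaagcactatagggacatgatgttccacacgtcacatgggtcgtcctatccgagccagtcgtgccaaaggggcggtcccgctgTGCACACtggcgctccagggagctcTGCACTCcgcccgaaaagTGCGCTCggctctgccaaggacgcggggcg
Mt2: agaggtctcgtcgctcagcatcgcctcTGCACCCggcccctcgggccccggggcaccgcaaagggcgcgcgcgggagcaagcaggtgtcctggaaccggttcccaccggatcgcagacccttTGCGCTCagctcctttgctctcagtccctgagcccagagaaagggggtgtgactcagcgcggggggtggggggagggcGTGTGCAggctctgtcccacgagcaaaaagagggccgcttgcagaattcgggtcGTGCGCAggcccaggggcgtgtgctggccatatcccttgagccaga
Sgk1: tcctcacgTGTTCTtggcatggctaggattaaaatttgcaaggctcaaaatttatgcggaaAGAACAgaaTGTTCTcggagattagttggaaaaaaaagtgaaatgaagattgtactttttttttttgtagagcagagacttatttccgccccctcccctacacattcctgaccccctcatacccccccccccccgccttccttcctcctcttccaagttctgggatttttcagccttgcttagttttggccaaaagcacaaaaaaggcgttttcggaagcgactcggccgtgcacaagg
The Mt2 window held 4 matches to the metal response element, starting at -223, -128, -50 and 5 relative to the start annotated by RefSeq, and the Mt1 window held 3, at -23, 3 and 21. For Mt2 the RefSeq start lies before the start of the GENCODE gene body given above, and so does the match at 5. Among all 32851 RefSeq windows, 25.7% held at least 1 match, 1.97% held 3 or more and 0.517% held 4 or more. The Sgk1 window held 3 matches to TGTTCT, of which those at -189 and -180 form a complete inverted repeat with a gap of 3 bases. It was chosen for display because it held the most matches: of the other 5 Sgk1 windows, 2 held 1 match each and 3 held none, and none held the complete repeat. TGTTCT alone was found in 19.0% of windows, whereas the complete repeat was found in 3 of 32851 (0.00913%). Among the other genes with a window, Tsc22d3 held 1 match to TGTTCT, and Fkbp5, Per1, Klf9, Ddit4, Txnip, Mt1 and Mt2 held none in the windows searched. The 1 Fkbp5 window, at chr17:28486100-28486399 on the minus strand, lies inside the GENCODE gene body (chr17:28399094-28517527). The 2 Per1 windows also lie inside their gene body. For these genes the outer 5′ end of the gene body was not searched. A match describes these letters only, and no binding was measured in this study.

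Library totals ran from 810662 to 1258575 counts, and 23.53 to 45.67% of counts were from mitochondrially encoded genes. The labels call the cells CD8+ T cells, but transcripts that define T cells were scarce: 12 T cell markers summed to 160.2 ± 121 CPM (counts per 1e+06 counts of the library) in the young group, 277.6 ± 152 in the aged ad libitum group and 417.8 ± 107 in the restricted group (SD, n = 3 each). The 12 macrophage and monocyte markers came to 3626 ± 156 CPM in the young, 3683 ± 1770 in the aged ad libitum and 8301 ± 775 in the restricted group, with a range of 2070 to 5578 CPM in the aged ad libitum libraries and 7418 to 8870 in the restricted ones. Apoe alone was at 1620, 1684 and 4254 CPM after TMM scaling, a large part of each sum. All 12 had a higher fitted level in the restricted group than in either other group. With age 7 were higher and 5 lower. Keratinocyte markers went from 9.01 CPM in the young to 92.6 and 424.6 in the aged ad libitum and restricted groups, skeletal muscle markers from 8.70 to 30.1 and 167.5, red blood cell markers from 2.46 to 71.2 and 287.2, and neutrophil markers from 37.7 to 65.4 and 103.3. Within the neutrophil list, S100a8 (0, 15.7 and 35.2 CPM after TMM scaling) and S100a9 (0, 5.99 and 27.3) rose, whereas Mmp9 (34.0, 38.9 and 29.1) did not. Ly6g had 0, 0 and 2 counts, and Csf3r, Cxcr2 and Retnlg had group means of at most 6.41 CPM. Endothelial markers were at 112.2, 443.1 and 183.7 CPM. Adipocyte markers were at 40.0, 107 and 89.9 CPM, though Adipoq, Plin1 and Lep of that list were at 0 in all 9 libraries. Restricted replicate 2 stood apart. Its fibroblast markers summed to 3730 CPM against 841.6 and 976.8 in the other restricted libraries, its keratinocyte markers to 762.8 against 209.7 and 301.2, and its mitochondrial share was the lowest, at 23.53%. In such bulk samples fewer cells of a type and less RNA per cell cannot be told apart. Levels of genes below are in CPM after TMM scaling, log2 fold changes are from edgeR's quasi-likelihood test with their standard error (SE), and adjusted p-values are from the Benjamini-Hochberg method over all 9009 tested genes. Groups without overlap, as given for some genes below, were frequent among all tested genes. The share was 16% between young and aged ad libitum, 17.7% between aged ad libitum and restricted, and 19.1% between young and restricted.

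**Figure D1:**
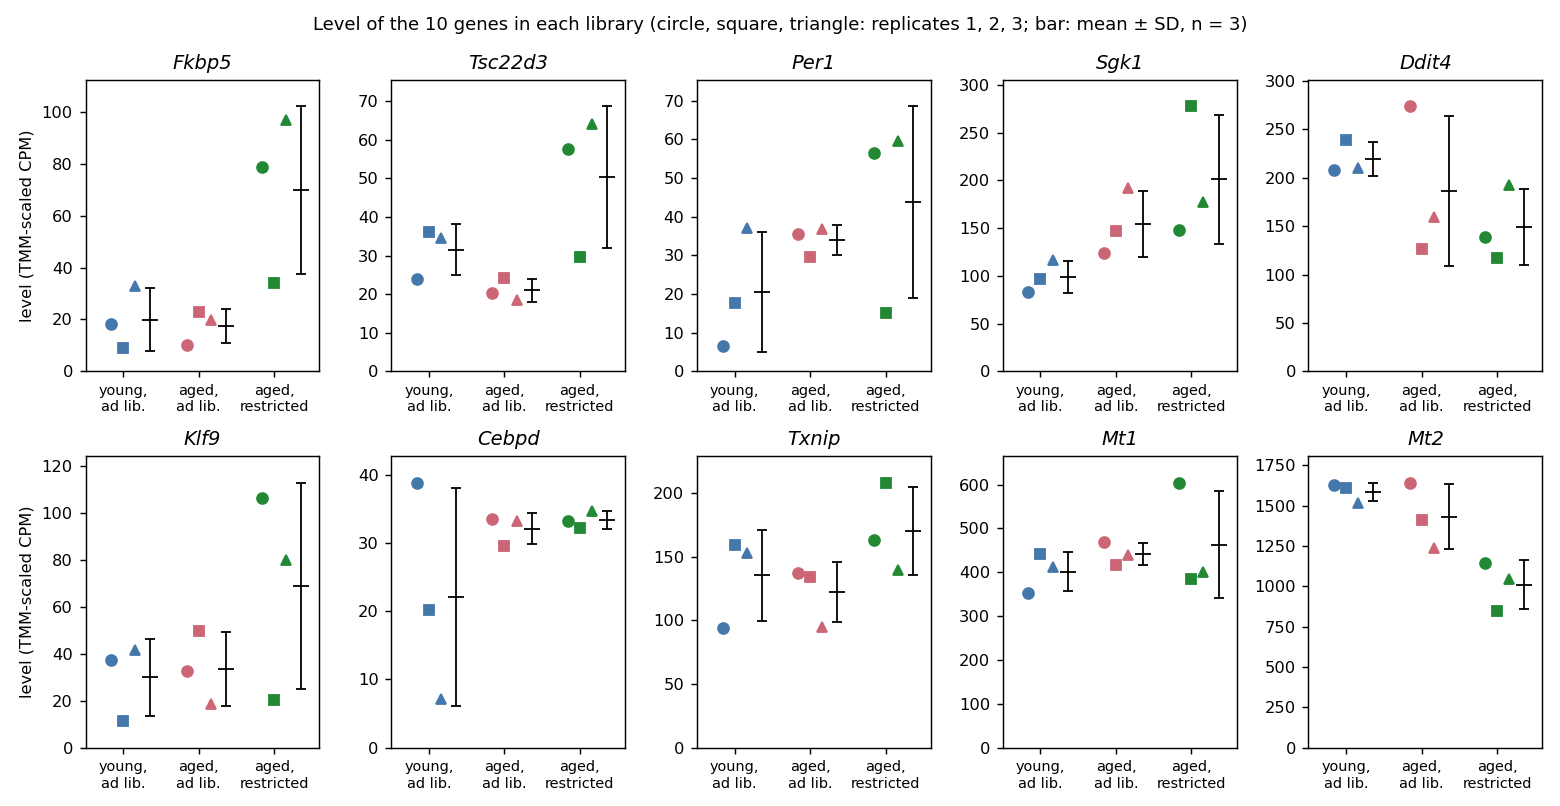
Level of each of the 10 genes (y axis, TMM-scaled CPM, from 0) in each library, by group (x axis), with replicate 1 as a circle, 2 as a square and 3 as a triangle, and the mean ± SD of 3 libraries as a black bar. Fkbp5 was at 34.1 to 96.9 CPM in the restricted libraries and at 8.86 to 32.7 in the other 6, and Mt2 was at 845.1 to 1143 CPM in the restricted libraries and at 1239 to 1643 in the others.

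Fkbp5, the feedback gene of the receptor, had its highest levels in the restricted group. Its counts were 22, 11 and 37 in young replicates 1 to 3, 10, 17 and 16 in the aged ad libitum replicates, and 71, 52 and 109 in the restricted replicates. Each restricted library was above each of the other 6 libraries, and the young and aged ad libitum libraries overlapped. Mean levels were 19.9 ± 12.0 CPM in the young group, 17.6 ± 6.57 in the aged ad libitum group and 69.9 ± 32.3 in the restricted group (SD, n = 3 each). Fkbp5 differed among the 3 groups (edgeR F-test on both coefficients, adjusted p = 0.0225). The separate contrasts came close to the threshold of 0.05 without passing it. Restricted against aged ad libitum, the log2 fold change was 2.00 ± 0.51 (SE; 95% interval 0.94 to 3.05; adjusted p = 0.0531), and restricted against young it was 1.80 ± 0.50 (interval 0.79 to 2.82; adjusted p = 0.0536). The side of the threshold depended on the settings: Fkbp5 was called against the aged ad libitum group under 8 of 17 alternatives, DESeq2 among them (adjusted p = 0.0283), and the adjusted p ran from 0.00455 to 0.267, while the log2 fold change stayed between 1.69 and 2.33. The difference among the 3 groups was not called without restricted replicate 1 (adjusted p = 0.112) or without restricted replicate 3 (adjusted p = 0.237). With age alone the log2 fold change was -0.19 ± 0.53 (interval -1.27 to 0.89; adjusted p = 0.937).

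Tsc22d3, the GILZ gene, had a pattern with the same order of groups in part. Its counts were 29, 45 and 39 in the young replicates, 20, 18 and 15 in the aged ad libitum replicates and 52, 45 and 72 in the restricted replicates. In CPM the restricted libraries (29.5 to 64.0) were all above the aged ad libitum ones (18.4 to 24.1) but overlapped the young ones (24.0 to 36.2). Restricted against aged ad libitum, the log2 fold change was 1.25 ± 0.45 (interval 0.34 to 2.17), which did not pass over all tested genes (adjusted p = 0.220). Against young it was 0.66 ± 0.43 (adjusted p = 0.607), and for age it was -0.59 ± 0.45 (adjusted p = 0.708).

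The 3 transcriptional regulators gave no call. Klf9 was at 37.2, 11.3 and 41.6 CPM in the young replicates, 32.6, 49.6 and 18.4 in the aged ad libitum replicates and 106.3, 20.3 and 80.0 in the restricted replicates. Restricted replicates 1 and 3 were above all other libraries, and replicate 2 lay within the range of both ad libitum groups. The log2 fold change of the restricted group was 1.03 ± 0.54 against aged ad libitum (adjusted p = 0.475) and 1.18 ± 0.53 against young (adjusted p = 0.378). Per1 showed the same split of the restricted libraries, at 56.5, 15.1 and 59.6 CPM, beside 35.6, 29.5 and 36.9 in the aged ad libitum group and 6.61, 17.7 and 37.2 in the young group. Its log2 fold changes were 0.34 ± 0.53 against aged ad libitum (adjusted p = 0.870), 1.08 ± 0.54 against young (adjusted p = 0.443) and 0.74 ± 0.55 for age (adjusted p = 0.698). Without young replicate 3 they were 1.81 against young (adjusted p = 0.197) and 1.46 for age (adjusted p = 0.420). The lowest values of Per1 with 1 library left out were 0.66 against young and 0.30 for age. The level of Per1 follows the time of day in most tissues, and collection times were not available to set beside these values. Cebpd was at 33.2, 32.1 and 34.7 CPM in the restricted replicates and 33.6, 29.5 and 33.2 in the aged ad libitum replicates, a narrow band. The young replicates spread from 7.08 to 38.8 CPM, on both sides of that band. The log2 fold changes of Cebpd were 0.59 ± 0.50 against young, 0.05 ± 0.50 against aged ad libitum and 0.54 ± 0.51 for age (adjusted p between 0.735 and 0.982). Without young replicate 1 they were 1.28 against young (adjusted p = 0.380) and 1.21 for age (adjusted p = 0.531). The lowest values of Cebpd with 1 library left out were 0.18 against young and 0.12 for age. Its count is uncertain, because 1808 bases of the gene overlap Spidr on the opposite strand and whether the counting used strand is not given in the sources used here. Cebpd had 280 counts in all libraries together, and Spidr had 86.

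Sgk1, the kinase gene, rose in the restricted group relative to the young group. Its levels were 83.5, 96.6 and 116.8 CPM in the young replicates, 124.1, 147.5 and 191.8 in the aged ad libitum replicates and 148.4, 277.6 and 177.0 in the restricted replicates. Both aged groups lay above every young library and overlapped each other. Restricted against young the log2 fold change was 1.03 ± 0.27, a 2.04-fold difference (interval 0.47 to 1.59; adjusted p = 0.0448). For age it was 0.64 ± 0.28 (interval 0.08 to 1.21; adjusted p = 0.397), and for restriction at 20 months 0.39 ± 0.27 (interval -0.17 to 0.94; adjusted p = 0.639). The call rested on restricted replicate 2 among others, the library with the high fibroblast and keratinocyte markers: without it the log2 fold change was 0.71 (adjusted p = 0.224). It was also lost without each young replicate in turn (adjusted p from 0.0720 to 0.198), without aged ad libitum replicate 3 (0.0542), without restricted replicate 3 (0.0759) and with library totals in place of TMM scaling (0.0743). Over 17 alternatives the log2 fold change ran from 0.714 to 1.203 and was called under 10.

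The nutrient-responsive genes Ddit4 and Txnip gave no call, and in both contrasts with the restricted group their fitted differences had opposite signs. Ddit4 was at 208.3, 239.2 and 209.7 CPM in the young replicates, 273.7, 126.0 and 159.8 in the aged ad libitum replicates and 138.4, 116.8 and 192.1 in the restricted replicates. Every young library was above every restricted library, and the aged ad libitum libraries overlapped both. The log2 fold change of Ddit4 was -0.56 ± 0.27 against young (interval -1.11 to -0.01; adjusted p = 0.423), -0.33 ± 0.27 against aged ad libitum (adjusted p = 0.713) and -0.23 ± 0.27 for age (adjusted p = 0.822). Txnip was at 162.8, 208.0 and 139.6 CPM in the restricted replicates, all above the aged ad libitum replicates at 137.3, 134.1 and 94.7, while the young replicates at 94.2, 158.7 and 153.0 overlapped both. Its log2 fold change was 0.48 ± 0.27 against aged ad libitum (interval -0.08 to 1.04; adjusted p = 0.517), 0.33 ± 0.27 against young (adjusted p = 0.721) and -0.15 ± 0.27 for age (adjusted p = 0.906).

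Mt2 fell in the restricted group relative to the young group, whereas Mt1 did not pass the test in any contrast. Mt2 was at 1626, 1608 and 1518 CPM in the young replicates, 1643, 1412 and 1239 in the aged ad libitum replicates and 1143, 845.1 and 1043 in the restricted replicates. Every restricted library lay below all 6 others, and the young and aged ad libitum libraries overlapped. Restricted against young, the log2 fold change of Mt2 was -0.65 ± 0.16 (interval -0.97 to -0.33; adjusted p = 0.0251), and Mt2 also differed among the 3 groups (adjusted p = 0.0483). Restricted against aged ad libitum it was -0.50 ± 0.16 (interval -0.83 to -0.18; adjusted p = 0.145) and for age -0.15 ± 0.16 (adjusted p = 0.811). Under 17 alternatives the difference from young stayed between -0.75 and -0.54 and was called under 12. The call was lost with library totals (adjusted p = 0.166), without young replicates 1, 2 or 3 (0.112, 0.124 and 0.0690) and without restricted replicate 3 (0.0741), and the test over the 3 groups was called under 6 of 16 alternatives.

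Mt1 levels overlapped between all groups, at 352.2, 441.3 and 411.4 CPM in the young replicates, 468.0, 417.0 and 440.2 in the aged ad libitum replicates and 604.6, 383.8 and 401.1 in the restricted replicates. Its log2 fold changes were 0.20 ± 0.20 against young (interval -0.21 to 0.62; adjusted p = 0.804), 0.07 ± 0.20 against aged ad libitum (interval -0.35 to 0.48; adjusted p = 0.943) and 0.14 ± 0.20 for age (adjusted p = 0.871). The intervals leave room for differences of that width in either direction. Mt1 and Mt2 are closely related copies, so reads could be assigned to the wrong member by the counting, and how reads with several matches were handled is not given in the sources used here. Each value of a single metallothionein is uncertain to that extent.

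The makeup of the pair does not depend on library scaling. Mt1 made up 17.8, 21.5 and 21.3% of Mt1 and Mt2 counts together in the young replicates, 22.2, 22.8 and 26.2% in the aged ad libitum replicates and 34.6, 31.2 and 27.8% in the restricted replicates. Group means were 20.2 ± 2.10%, 23.7 ± 2.17% and 31.2 ± 3.42% (SD, n = 3 each), and no test was made of this share. The groups did not overlap, but the nearest libraries of neighbouring groups were within counting error of each other. The highest young share had an exact 95% binomial interval of 19.9 to 23.2% and the lowest aged ad libitum share one of 20.4 to 24.0%. Likewise, the interval was 23.9 to 28.6% for the highest aged ad libitum share and 25.6 to 30.0% for the lowest restricted share. The summed level of the pair was 1986 ± 60.9 CPM in the young group, 1873 ± 219 in the aged ad libitum group and 1473 ± 260 in the restricted group. On the 3 positions of the metal response element in Mt1 and the 4 in Mt2, shown above, these counts give no reading.

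**Figure D2:**
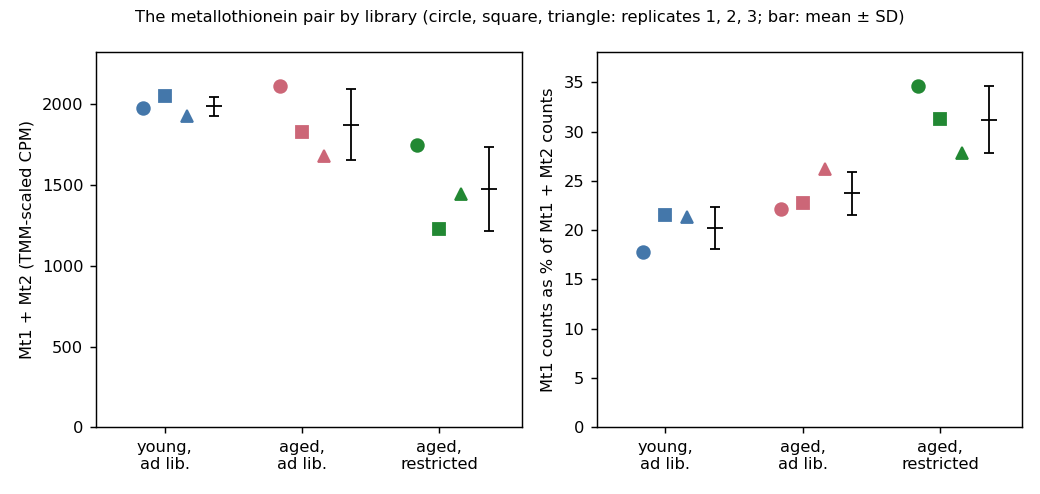
The metallothionein pair by library: left, the sum of Mt1 and Mt2 levels (y axis, TMM-scaled CPM), and right, Mt1 counts as a percent of Mt1 and Mt2 counts (y axis), with groups on the x axis, replicates 1, 2 and 3 as circle, square and triangle, and mean ± SD as black bars (n = 3). The Mt1 share was 17.8 to 21.5% in the young libraries and 27.8 to 34.6% in the restricted ones.

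Read over all 10 genes, few were called, and the shares of all tested genes called were low as well. For age, 0 of the 10 genes were called by edgeR, where 0.289% of the 9009 tested genes were (26 genes), and DESeq2 called 0. An unadjusted p under 0.05 was found for 1 of the 10 and for 10.4% of tested genes. For restriction at 20 months 0 of the 10 were called, against 0.944% of tested genes (85 genes), and DESeq2 called 1, Fkbp5. An unadjusted p under 0.05 was found for 3 of the 10 and for 11.7% of tested genes. Restricted against young, 2 of the 10 were called, Sgk1 up and Mt2 down, against 1.94% of tested genes (175 genes), and 5 of the 10 had an unadjusted p under 0.05, beside 11.6% of tested genes. In the test over the 3 groups 2 of the 10 were called, Fkbp5 and Mt2, against 2.13% (192 genes), and 4 of the 10 had an unadjusted p under 0.05, beside 14% of tested genes. The restricted group had the higher fitted level for 8 of the 10 genes against aged ad libitum, with a median log2 fold change of 0.37, and for 8 of 10 against young, with a median of 0.63. The medians over all tested genes were 0.00 and 0.02. These contrasts share the restricted libraries, and the age contrast shares libraries with both. For age 5 of the 10 genes were higher and 5 lower, with a median of 0.00.

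**Figure D3:**
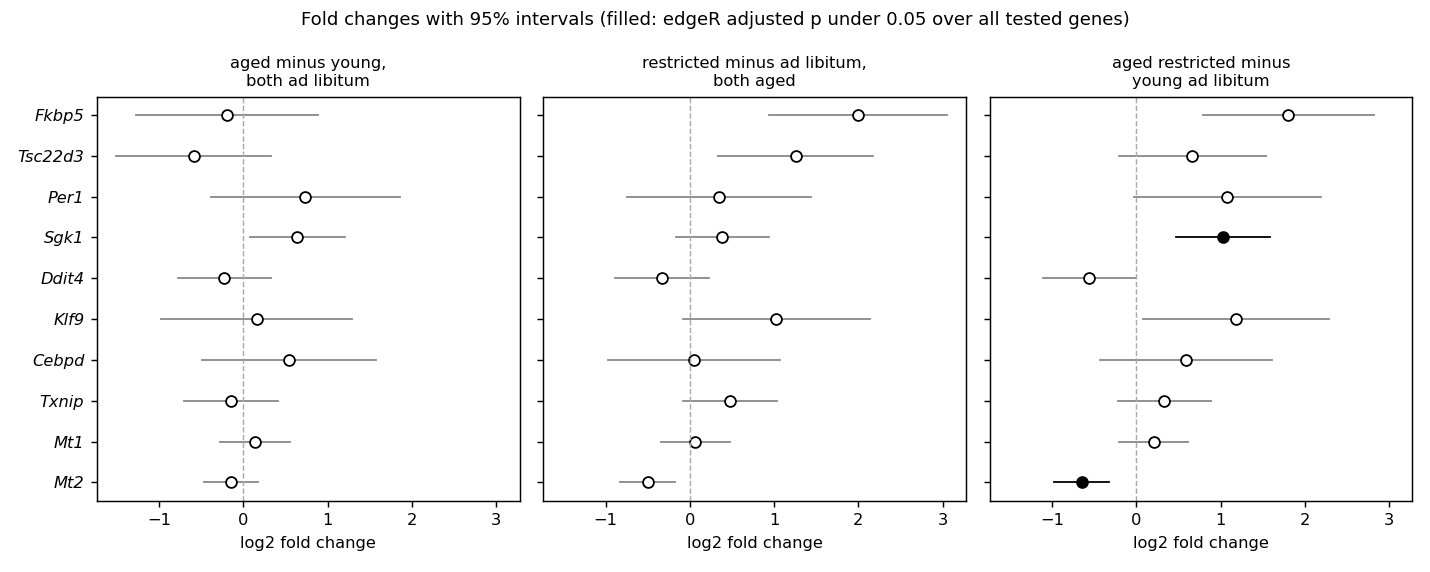
Log2 fold change of each gene (x axis) with its 95% interval from edgeR, in the 3 contrasts, with genes on the y axis and filled circles for an adjusted p under 0.05 over all tested genes. Sgk1 (1.03) and Mt2 (-0.65) are filled in the contrast of restricted with young, and no gene is filled in the other contrasts.

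The restricted libraries differed among themselves as well as from the other groups. Replicate 2 had the lowest TMM-scaled level of the 3 restricted libraries for 8 of the 10 genes and the highest for the other 2, Sgk1 and Txnip. The gap was widest for Klf9, where the highest restricted library was 5.23 times the lowest, followed by Per1 at 3.95 and Fkbp5 at 2.84. Scaled by plain library totals, replicate 2 was lowest for 4 genes (Fkbp5, Tsc22d3, Per1 and Klf9) and highest for 3 (Sgk1, Cebpd and Txnip), so its place in the order for the first 4 and for Sgk1 and Txnip did not depend on the scaling. The high fibroblast and keratinocyte marker sums and the low mitochondrial share of that library moved with this order, and their part in it was not tested. Without replicate 2 the fitted differences of those 4 genes were larger. Against aged ad libitum, Fkbp5 was then at 2.33 (adjusted p = 0.0125) and Tsc22d3 at 1.53 (adjusted p = 0.107). Against young, Fkbp5 was at 2.14 (adjusted p = 0.0138), Klf9 at 1.63 (adjusted p = 0.0574) and Per1 at a log2 fold change of 1.50 (adjusted p = 0.158). The macrophage marker sum, higher in all 3 restricted libraries than in any other library, moved with the level of Fkbp5 between the groups, and its part in the differences was not tested.

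**Figure D4:**
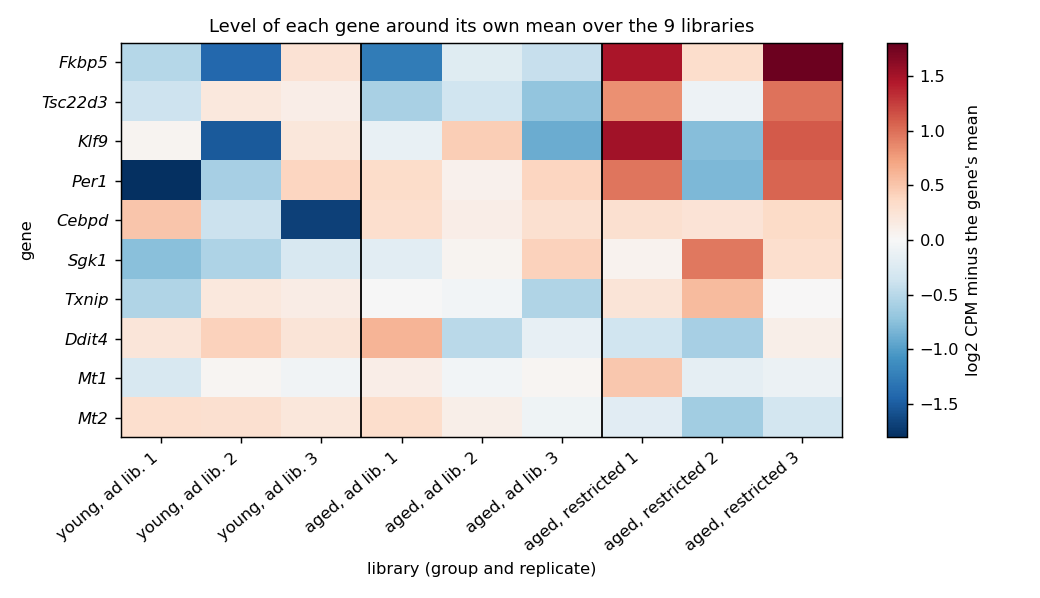
Log2 CPM of each gene (rows, y axis) minus the gene's own mean over the 9 libraries (colour scale), by library (columns, x axis), with black lines between the groups. Fkbp5, Tsc22d3, Klf9 and Per1 are high in restricted replicates 1 and 3 and lower in restricted replicate 2, and Mt2 is below its mean in the 3 restricted libraries.

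The receptor and its chaperones, the next layer of the pathway, were described from a list of 20 genes, of which 17 were tested. Nr3c1 itself, the receptor gene, had counts of 36, 73 and 66 in the young replicates, 29, 40 and 27 in the aged ad libitum replicates and 51, 52 and 62 in the restricted replicates, and its levels overlapped between all groups. Its log2 fold change was 0.32 ± 0.40 for restriction (interval -0.51 to 1.15; adjusted p = 0.832), -0.02 ± 0.39 against young (adjusted p = 0.997) and -0.34 ± 0.40 for age (adjusted p = 0.821). Hsd11b1, whose enzyme regenerates active glucocorticoid inside cells, had 0, 0 and 12 counts in the young group, 0, 0 and 1 in the aged ad libitum group and 5, 0 and 1 in the restricted group, too few to test. In the contrast of restricted with young 3 of the 17 fell and 0 rose, where 0.833% of all tested genes fell and 1.11% rose. Hsp90aa1, a cytosolic HSP90, went from 2325 to 1252 CPM (log2 fold change -0.89 ± 0.18; adjusted p = 0.00387). Fkbp4, the co-chaperone that carries the receptor towards the nucleus, went from 199.1 to 97.5 CPM (-1.03 ± 0.25; adjusted p = 0.0242), and Hsp90ab1, the other cytosolic HSP90, from 2914 to 1986 CPM (-0.55 ± 0.15; adjusted p = 0.0448). All 3 calls were lost under library totals (adjusted p = 0.0677, 0.0718 and 0.293) and without young replicate 3 (0.0710, 0.0501 and 0.288). The Fkbp4 call was also lost without young replicates 1 or 2 (0.0973 and 0.110) and restricted replicates 1 or 3 (0.107 and 0.0514), and the Hsp90ab1 call in 1 further scaling, in the fit of only those groups and without young replicates 1 or 2, aged ad libitum replicate 3 or restricted replicates 1 or 2 (0.0549 to 0.149). Of the 17 genes, 6 were higher for age, 9 for restriction and 8 against young, with medians of -0.29, 0.16 and -0.02. In the other contrasts 0 of the 17 were called, with the smallest p for Fkbp4 in the age contrast (-0.76 ± 0.25; adjusted p = 0.214) and for the chromatin remodeller Smarca4 in the restriction contrast (-0.95 ± 0.28; adjusted p = 0.110).

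Of 34 other glucocorticoid targets, 23 were tested. Against aged ad libitum 2 rose and 0 fell, where 0.688% of all tested genes rose and 0.255% fell. Dusp1, a phosphatase that switches off MAP kinases, went from 75.9 to 255.2 CPM (log2 fold change 1.74 ± 0.28; adjusted p = 0.00163). Zfp36, which destabilises cytokine mRNAs, went from 86.0 to 204.4 CPM (1.24 ± 0.30; adjusted p = 0.0389), a call lost with library totals (0.0771), in a fit of only those 2 groups (0.102) and without restricted replicate 1 (0.362) or aged ad libitum replicates 2 or 3 (0.212 and 0.114). Against young 5 rose and 0 fell, where 1.11% of all tested genes rose and 0.833% fell. Dusp1 rose from 93.5 CPM (1.45 ± 0.28; adjusted p = 0.00290), the scavenger receptor gene Msr1 from 8.57 to 50.5 CPM (2.56 ± 0.53; adjusted p = 0.00628) and Cebpb, the C/EBP partner of Cebpd, from 41.4 to 117.6 CPM (1.50 ± 0.34; adjusted p = 0.0125). The Msr1 call was lost without young replicate 2 (0.0554), and its value was 3.22 without young replicate 3, and the Cebpb call without young replicate 1 (0.0964) or restricted replicates 1 or 3 (0.130 and 0.0583). Cd163, a haemoglobin scavenger receptor of macrophages, had 0 counts in the young libraries together and 149 in the restricted ones, at least 50.1-fold higher with a floor of 3 counts over the group (adjusted p = 0.00437). Restricted replicate 1 held 91 of the 149 counts, and without it the bound was 26.1-fold. Cd163 was not called by DESeq2 (0.0571) or without restricted replicate 1 (0.0691). Mgst1, a microsomal glutathione transferase named after its value was seen, rose from 3.67 to 38.3 CPM (3.35 ± 0.88; adjusted p = 0.0390). Of the 23, 18 were higher in the restricted than in the aged ad libitum group, with a median log2 fold change of 0.91, and 23 were higher than in the young group, with a median of 1.05, beside 4505 and 4607 of the 9009 tested genes. Cd163 and Mgst1 passed the count filter through the restricted libraries only, so their direction was set in advance. Mgst1 had 13 counts in the young, 7 in the aged ad libitum and 129 in the restricted group. Cd163 had 6 in the aged ad libitum group. The 18, the 23 and the medians include both genes. Cd163 and Msr1 are themselves macrophage genes, and the macrophage marker sum was higher in the restricted libraries as well. Its part in these differences was not tested. Of the genes that tissue digestion is known to switch on, described below, 4 rose and 4 fell against young in the same libraries. Their part was not tested either. For age 0 of the 23 were called, and the smallest p was that of Msr1 (1.65 ± 0.54; adjusted p = 0.214), at 2.31 without young replicate 3.

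The lists for fasting, the clock and metals gave 0 calls by edgeR in each of the 3 contrasts, and some alternatives called Nfil3 or Hmox1. Of 32 genes of fasting, FOXO factors and mTORC1 control, 21 were tested, with median log2 fold changes of 0.15 for age, 0.06 for restriction and 0.21 against young. The smallest p was that of Ulk1, the autophagy kinase gene, for age (-2.32 ± 1.06; adjusted p = 0.441) and for restriction (3.07 ± 1.06; adjusted p = 0.204). Those values moved to -1.59 without young replicate 1 and to 2.39 without restricted replicate 3. Ulk1 had only 3, 1 and 1 counts in the aged ad libitum replicates, so both values rest on few counts. Against young the smallest p was that of Plin2, a lipid droplet coat gene (0.89 ± 0.30; adjusted p = 0.162). Of 20 clock genes, 11 were tested, with medians of 0.32, 0.08 and 0.14 in the same order. Nfil3, a clock output repressor, had the smallest p for restriction (1.19 ± 0.57; adjusted p = 0.419) and against young (8.79 to 36.5 CPM, 2.03 ± 0.58; adjusted p = 0.0707, and 0.0494 by DESeq2), and the kinase gene Csnk1d had it for age (-0.65 ± 0.29; adjusted p = 0.433). Of 20 genes of metal response and zinc transport, 15 were tested, with medians of 0.40, 0.20 and 0.17. Hmox1, the haem oxygenase gene, was at 36.5 CPM in the young, 82.7 in the aged ad libitum and 85.1 in the restricted group (1.18 ± 0.36 for age, adjusted p = 0.176; 1.21 ± 0.36 against young, adjusted p = 0.0864). Hmox1 was called for age without aged ad libitum replicate 2 (0.0368), and against young without that library (0.0266), with no filter (0.0395) and in the fit of only those groups (0.0462). The zinc transporter gene Slc30a5 had the smallest p for restriction (2.73 ± 1.32; adjusted p = 0.425). That value ran from 2.14 to 6.67 with 1 library left out, and the aged ad libitum group held 4 counts of Slc30a5 in all, each of them in replicate 3.

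Beside Txnip, 9 of 13 genes of thioredoxin and glucose sensing were tested, with medians of -0.18 for age, 0.28 for restriction and 0.14 against young, and 1 was called. Nlrp3, which encodes an inflammasome sensor that TXNIP can bind, rose from 1.73 CPM in the young to 45.7 in the restricted group (4.65 ± 0.81; adjusted p = 0.00104), and was at 17.3 CPM in the aged ad libitum group (3.26 ± 0.83 for age, adjusted p = 0.0821, and 0.0365 by DESeq2; 1.39 ± 0.64 for restriction, adjusted p = 0.400). Without young replicate 3 the values of Nlrp3 were 5.60 against young and 4.21 for age, and without aged ad libitum replicate 3 they were 2.55 for age and 2.10 for restriction. The age difference was also called with no filter (0.00602) and without restricted replicate 2 (0.0300). Nlrp3 is best known from macrophages and other myeloid cells. Tissue digestion is itself known to switch on immediate-early and heat shock genes, and a list of 25 of these was described beside the others, with all 25 tested. Against young, 4 rose and 4 fell in the restricted group, where 1.11% of all tested genes rose and 0.833% fell. Those with the smallest p were the heat shock genes Hspa1b (271.4 to 29.2 CPM, -3.23 ± 0.32; adjusted p = 6.89e-07), Hspa1a (195.3 to 21.9 CPM, -3.15 ± 0.35; adjusted p = 3.42e-06), Dnajb1 (-2.03 ± 0.27; adjusted p = 5.26e-05) and Hsph1 (-2.36 ± 0.36; adjusted p = 0.000276). The 4 that rose, named after their values were seen, were Fosb (1.41 ± 0.24; adjusted p = 0.00104), Fos (1.04 ± 0.22; adjusted p = 0.00628), Ier3 (1.47 ± 0.35; adjusted p = 0.0364) and Nfkbiz (1.56 ± 0.41; adjusted p = 0.0420). For age 1 rose, Fosb (169.5 to 455.7 CPM, 1.43 ± 0.24; adjusted p = 0.00625), and 3 fell, Hspa1a (-4.28 ± 0.39; adjusted p = 1.66e-07), Hspa1b (-2.76 ± 0.31; adjusted p = 7.31e-06) and Dnajb1 (-1.52 ± 0.27; adjusted p = 0.00767). Of all tested genes 0.144% rose and 0.144% fell with age. The Fosb and Dnajb1 calls for age were lost without young replicate 2 (0.0722 and 0.0701) or aged ad libitum replicate 3 (0.0501 for both). For restriction 0 of the 25 passed, and the smallest p was that of Socs3, a cytokine signal inhibitor (0.93 ± 0.24; adjusted p = 0.0503). Socs3 was called under 7 alternatives, among them DESeq2 (0.00811), no filter (0.0288) and mitochondrial genes left out (0.0381). Medians over the 25 were -0.17 for age, 0.39 for restriction and 0.40 against young. The heat shock genes thus moved between young and aged mice in the same libraries in which Hsp90aa1, Hsp90ab1 and Fkbp4 fell, and their part in those differences was not tested.

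**Figure D5:**
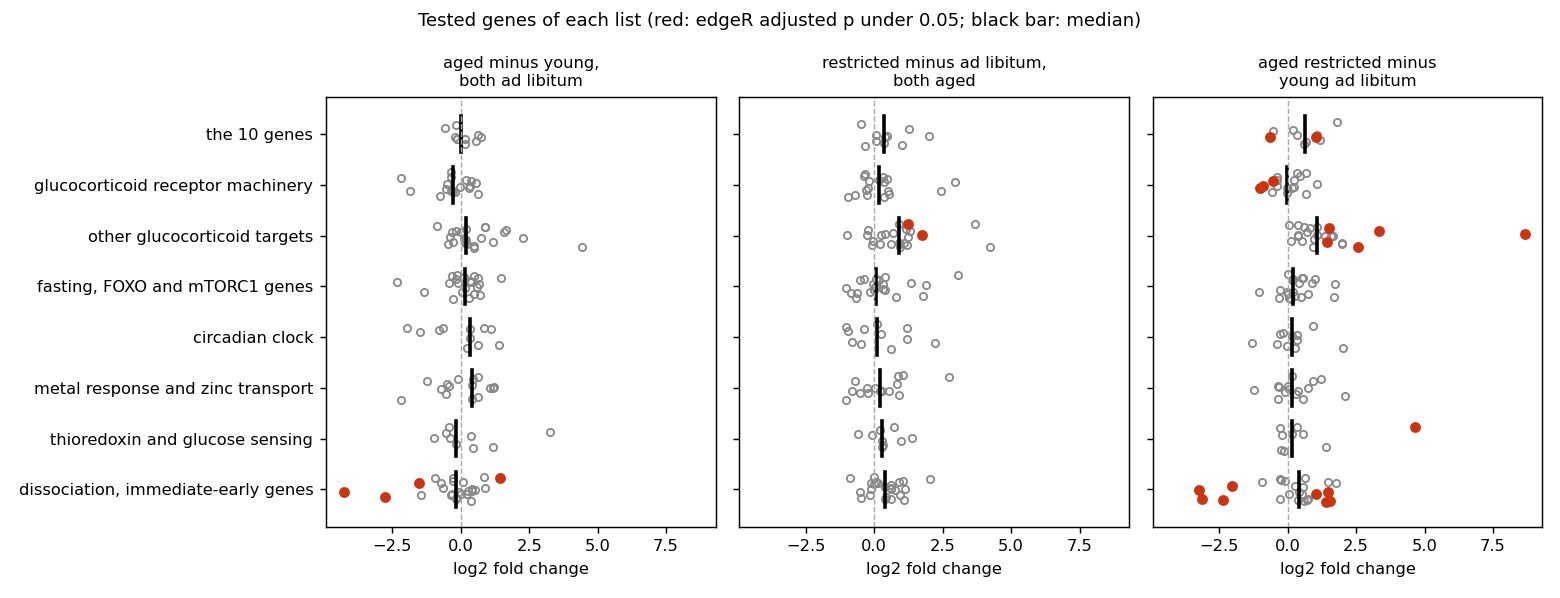
Log2 fold change (x axis) of every tested gene in the 10 genes and in 7 pathway lists (y axis) for the 3 contrasts, with red circles for an edgeR adjusted p under 0.05 and a black bar at the median of each list. Among the other glucocorticoid targets the median was 0.91 for restriction and 1.05 against young; the values far to the right in the last contrast are Cd163, with 0 counts in the young group, and Nlrp3.

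The profiles of the 10 genes over the 9 libraries were compared with those of 7706 genes that had a mean of at least 10 CPM, by the mean absolute difference in log2 CPM after each gene was centred on its own mean. Nearest to Fkbp5 were Gfm1 (0.37), Cad (0.37) and Hsd17b11 (0.41), while Klf9 and Tsc22d3 ranked 31 and 37 (0.53 and 0.54). Seen from Klf9, Fkbp5 ranked 89 and Tsc22d3 174. Nearest to Sgk1 were Pdhb, Aup1 and Kpna4 (0.18, 0.18 and 0.19), and the nearest other gene of the 10 was Txnip at rank 537. Nearest to Mt2 were Thoc3 (0.08), Rpl37a (0.09) and Larp1 (0.09). Ddit4 ranked 162 from Mt2, and Mt1 ranked 1177 (0.33), behind many unrelated genes, although both are metallothioneins and neighbours. Libraries and scaling are shared by all these profiles, and the ranks are descriptions of 9 libraries.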

How the data were processed

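RNA from 9 libraries (3 groups of 3) was measured with the QuantSeq 3′ kit as single reads of 75 bp, per the labels' protocols. The deposited table holds whole-number read counts by gene, which the authors made with Trim Galore, STAR and featureCounts on GRCm38 (mm10), per the submitters' processing notes. Versions, strand use, multiple matches and molecular identifiers are not given in the sources used here, and intervals on counts cover counting error only. Of 14418 genes with a count, 9009 passed edgeR's filterByExpr (minimum count 10) and entered edgeR 4.0.16 under R 4.3.3, where group was the single factor, all 9 libraries were fitted together (TMM, robust quasi-likelihood; 6 residual degrees of freedom) and genes were called at a Benjamini-Hochberg adjusted p of 0.05. The script was tested on simulated data. Replicates of a group were no copies of each other (the smallest chi-square between a pair was 6.03 per degree of freedom), and the series' design text calls them independent.

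The 10 genes and all lists were chosen with earlier results of these data known. The genes named are the 10, Nr3c1, Hsd11b1 and, for each list and contrast, every called gene where 4 or fewer were called, otherwise the 4 with the smallest p, or the 1 with the smallest p where none was. Named beyond this rule were Mgst1 and the 4 genes of the tissue digestion list that rose against young. Marker sums are CPM of plain library totals. Alternatives were DESeq2 1.42.0, DESeq2 size factors, plain library totals, mitochondrial genes left out, no filter, a minimum count of 30, only the groups compared, a replicate block and each library left out. Promoter windows are RefSeq's on GRCm38.p6. The build of the coordinates in the gene table was not established (536 of 25268 shared identifiers had the same start and end in GENCODE M21, an annotation of GRCm38), so they are not printed.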

Additional observations from a re-analysis of the deposited data

How the results depend on the processing

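Over the alternatives, 1173 values of single genes kept their direction and their side of the threshold, 35 came to pass it, 56 no longer passed it and 11 changed sign, none of which was called. Genes called for age (26) numbered 126 with no filter, 88 with DESeq2, 58 with only the groups compared and 2 to 91 with 1 library left out. Genes called for restriction (85) numbered 50 with library totals, 224 with no filter, 164 with DESeq2, 43 with only the groups compared and 35 to 157 with 1 library left out. Against young (175) there were 286 with no filter and 98 to 242 with 1 library left out, and over the 3 groups (192) there were 442 with no filter, 303 with DESeq2 and 120 to 307 with 1 library left out. The lowest age count was without young replicate 2, the highest without restricted replicate 2. Of the 10 genes, 1 (Fkbp5) was called for restriction with mitochondrial genes left out, no filter, a minimum count of 30 or DESeq2, and 0 to 1 with 1 library left out. Against young 2 were called as reported, 0 with library totals, 3 (with Fkbp5) with mitochondrial genes left out, no filter, a minimum count of 30 or only the groups compared, and 0 to 3 with 1 library left out, and over the 3 groups 1 with DESeq2 size factors or library totals and 0 to 2 with 1 library left out. With no filter the edgeR F-test over the 3 groups also called Sgk1 (adjusted p = 0.0316), which it did not call in the main fit (0.0920). With 1 library left out, log2 fold changes ran from -0.55 to 0.35 for Fkbp5 and -0.24 to 0.46 for Klf9 with age, -0.55 to 0.0748 for Ddit4 and -0.16 to 0.18 for Mt1 with restriction, and -0.0320 to 0.32 for Mt1 and -0.28 to 0.18 for Nr3c1 against young. The cause was not tested. Between libraries with the same number, deviations from the group means correlated at -0.03 to 0.08 over 9 pairs, none over 0.1. For 5 of 9 libraries the nearest library in both other groups had the same number. Whether the numbers pair the libraries was not established. With a replicate block, 49 genes were called for age and 133 for restriction. In that fit Fkbp5 was called for restriction (adjusted p = 0.0493) and against young (0.0286). Of the 10 genes, 1 was thus called for restriction and 3 against young. Smarca4 (0.0499) and Socs3 (0.0454) were called for restriction and Nlrp3 (0.0396) for age. Nr3c1 was not called against young in that fit, with a log2 fold change of 0.0348 (adjusted p = 0.990). Other scalings moved the median of all genes by at most 0.05 (log2). With 810662 to 1258575 counts per library, 1 count was 0.656 to 1.34 CPM, so genes with under 20 counts a library, such as Fkbp5 in the aged ad libitum group, carry wide counting error.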
